A study of Mus musculus with 8 samples.

Results

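The proteasome subunit genes were the 44 genes, of 18671 in the deposited expression table of BMEL cells, whose symbols are Psm, a letter from a to g and a number. The pattern matched 47 symbols, and Psmb8, Psmb9 and Psmb10, which encode the immunoproteasome subunits, were left out and are described apart. The rule reads the symbols only and uses no measured value. BMEL cells are a bipotential mouse embryonic liver cell line, and RNA was sequenced from 8 samples harvested 48 h after transfection. Of these samples, 4 received the pIGrhl2 plasmid and 4 the pcDNA plasmid (pcDNA3), with replicate numbers 1 to 4 on either side. From an EEF1A1 promoter, pIGrhl2 expresses Flag-tagged human GRHL2 and also EGFP, a fluorescent reporter, so GRHL2 is not the only difference between the plasmids. The sources used here name no selection of transfected cells before harvest. All samples come from one cell line and were exposed to the same transfection reagent (JetPrime). Values are log2 values per transcript length, made by the authors from the regularized logarithm (rlog) of read counts, and every difference below is pIGrhl2 minus pcDNA on that scale. The study asked which transcriptional changes follow forced expression of GRHL2, an epithelial transcription factor, and the proteasome genes were examined here within that comparison.

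The proteasome degrades proteins that carry ubiquitin chains. Its 20S core is a barrel of stacked rings of alpha and beta subunits, in which the beta subunits encoded by Psmb5, Psmb6 and Psmb7 cut peptide bonds. The 19S cap, made of a base with a ring of ATPases and a lid of non-ATPase subunits, binds ubiquitin chains, removes them and threads the unfolded protein into the core. Dedicated chaperones assemble the core and the base without being part of the finished particle, and other activators, PA28 and PA200, can dock on the core in place of the cap. Because subunits are used in fixed proportions, their genes are known to be regulated together, with Nfe2l1 as the transcription factor that raises them when degradation is impaired. In hepatic cells the proteasome clears misfolded proteins and turns over short-lived regulators.

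The 44 genes comprised 7 alpha ring genes (Psma1 to Psma7), 8 beta ring genes (Psmb1 to Psmb7 and Psmb11), 6 genes of the 19S ATPases (Psmc1 to Psmc6) and 11 genes of 19S non-ATPase subunits. The others were 3 genes of 19S assembly chaperones (Psmd5, Psmd9 and Psmd10), 4 genes of activators (Psme1 to Psme4), the gene of the inhibitor PI31 (Psmf1) and 4 genes of core assembly chaperones (Psmg1 to Psmg4). Psma8, a testis alpha subunit, was not analysed here. Of the 44 genes, 43 had a mean value of at least 5, and the exception was Psmb11. The depth of the samples is unknown because rlog values do not keep it.

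Some features of the samples bear on the results. Grhl2 itself, which checks the labels, ran from 5.65 to 6.96 in the pIGrhl2 samples and from 4.42 to 4.68 in the pcDNA samples. Same-numbered samples shared their deviations from the group means, and replicates 1 and 2 stood apart from replicates 3 and 4 in both groups, although no batch is named in the labels. Results are therefore given with the replicate number as a block where this changes a call. Of the hepatic and biliary markers listed, 11 of 11 were in the table and had means of at least 5, with summed log2 values of 16.87 to 17.02 in pIGrhl2 and 16.68 to 16.87 in pcDNA samples. The 5 blood markers in the table of 7 listed summed to 6.44 to 6.55 and 6.28 to 6.43, with Ptprc and Cd3e close to the table's floor, at mean values under 1, and Cd68 the main contributor. For the endothelial markers, 4 of 5 were in the table (4.33 to 4.44 against 4.37 to 4.40), and for the mesenchymal markers 4 of 7 (5.63 to 5.90 against 5.49 to 5.77), with Acta2 and Pdgfrb close to the floor. Whether these markers have a part in the results on the proteasome was not tested. In samples of whole cultures, fewer cells with a transcript and less of it per cell cannot be told apart.

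Proteasome genes moved little between the pIGrhl2 and pcDNA samples. All 44 differences lay between -0.19 (Psmd6) and 0.20 (Psme2) on the log2 scale, which is from 12.5% lower to 14.6% higher. An absolute difference of at most 0.2 was found for 82.3% of the genes with a mean of at least 5. That limit lies just above the largest difference of the members themselves. The members also had a median level of 11.16, against 8.53 for those genes, so the comparison was not matched for level. With limma, 3 of the 44 genes fell at an adjusted p under 0.05, namely Psmd5, Psmd6 and Psmg2, or 6.82% of them, against 5.91% of all genes and 8.38% of the genes with a mean of at least 5. No member rose by this test, against 10.5% of all genes and 6.69% of those with a mean of at least 5. At an unadjusted p under 0.05, limma had 8 members lower and 2 higher, where 12.7% and 18.4% of all genes and 17.6% and 13% of those with a mean of at least 5 were.

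With the replicate number as a block, limma called 9 members lower and 2 higher. The 9 were Psmc1, Psmc2, Psmc6, Psmd1, Psmd5, Psmd6, Psmd8, Psmd9 and Psmg2, and the 2 were Psma5 and Psme2. These are 20.5% and 4.55% of the members, against 13.9% and 18.2% of all genes and 20.6% and 16.3% of the genes with a mean of at least 5. The share called lower was thus near that of well-expressed genes, and the count of lower members went from 4 to 13 when both samples of one number were left out in turn (4 without number 1, 13 without number 2, 6 without number 3 and 5 without number 4). The pIGrhl2 samples lay wholly below the pcDNA samples for 5 members (Psmc6, Psmd5, Psmd6, Psmd8 and Psmg2), or 11.4%, against 9.47% of all genes and 13.2% of the genes with a mean of at least 5. They lay wholly above for 1 member, Psma5, against 14.3% of all genes and 9.4% of those with a mean of at least 5. In same-numbered pairs, 12 members were lower in every pair, against 21.3% of all genes and 29.6% of those with a mean of at least 5, and 4 were higher in every pair (Psma5, Psmb1, Psmc3 and Psme2), against 27.3% and 23.4%.

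**Figure D1:**
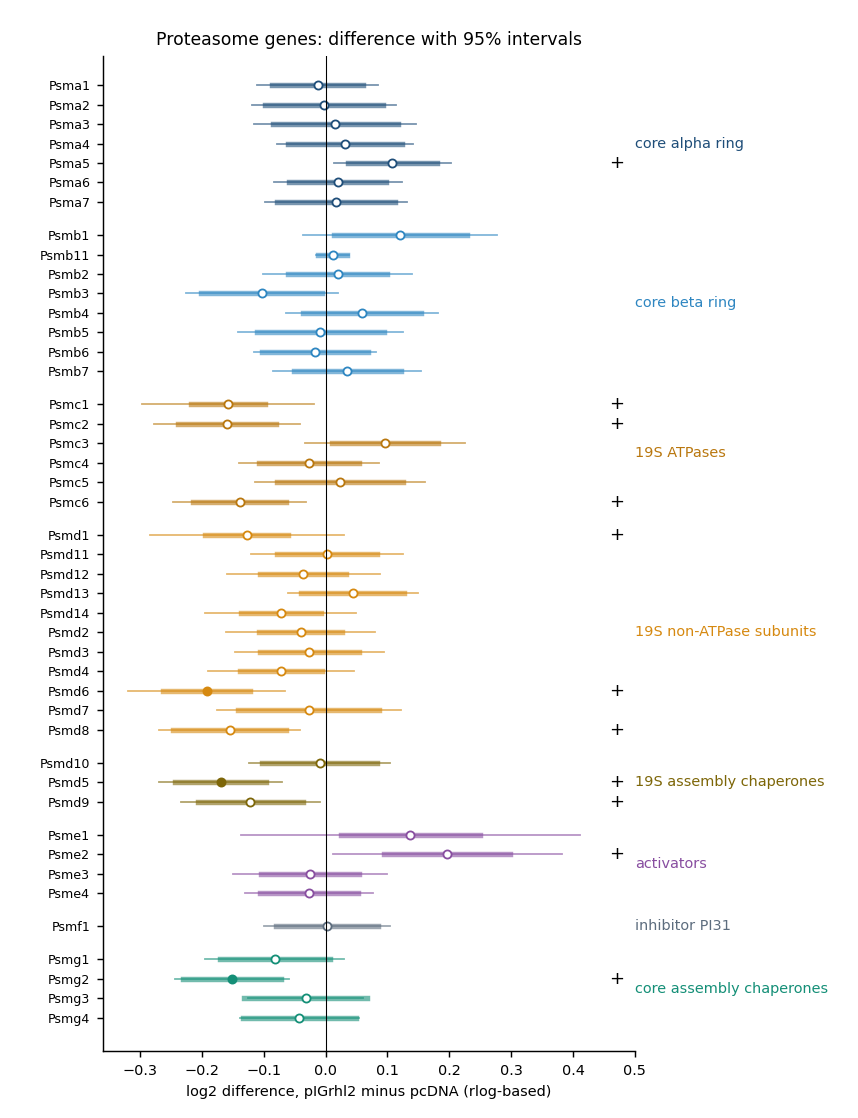
Difference between pIGrhl2 and pcDNA samples (log2, x axis) for each of the 44 proteasome genes, grouped by role, with 95% intervals from limma without a block (thin lines) and with the replicate number as a block (thick lines). Filled points mark the 3 genes called without the block, plus signs mark the 11 called with it, and all points lie between -0.19 and 0.20.

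The intervals also limit how large a difference between these rlog-based culture values could be, but not a change within transfected cells. Without the block they take the samples as independent, although same-numbered samples shared their deviations. The 95% interval of limma lay within a fold of 1.25 in either direction for 42 of the 44 genes, the exceptions being Psme1 and Psme2, and for 74.2% of the genes with a mean of at least 5. With the replicate block it did so for all 44 genes and for 85.0% of those genes. These shares were not matched for level either. The median difference over the members was -0.021, against 0.0066 over all genes and -0.011 over the genes with a mean of at least 5. This median was 0.0011 when every sample was given the same upper quartile and 0.0027 with an equal sum, so its direction rests on the scaling.

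The balance of directions was not the same in the genes of the core and of the cap. In the 20S core, 10 of 15 genes had higher means in the pIGrhl2 samples and 5 lower, with a median of 0.017, whereas in the 19S cap 4 of 17 were higher and 13 lower, with a median of -0.040. Over all 18671 genes, 10061 were higher and 8610 lower, and over the 10973 genes with a mean of at least 5, 5101 were higher and 5872 lower. The higher core genes include Psmb11 (0.011), which lies at the lower end of the expression values. The core count rests on the scaling, with 14 of 15 higher under an equal upper quartile or an equal sum and 5 of 15 under an equal median, while 13 or 15 of the 17 cap genes were lower under each. Within same-numbered pairs 1 to 4, the median of the core genes was -0.025, 0.13, -0.052 and 0.0079, so the pairs did not share a direction. The median of the cap genes was -0.057, -0.017, -0.098 and -0.066, below 0 in every pair as deposited, with an equal median and with an equal sum, and 0.026 in pair 2 with an equal upper quartile. Genes lower in every pair made up 9 of the 17 cap genes (6 to 9 under the scalings) and 0 of the 15 core genes, where 29.6% of the genes with a mean of at least 5 were lower in every pair. The difference between core and cap was not tested.

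Core genes were, as measured per transcript length, among the well-expressed genes of these cells. Apart from Psmb11, their mean values over the 8 samples ran from 9.45 for Psmb5 to 12.15 for Psma7, and the cap genes ran from 10.65 for Psmc2 to 13.06 for Psmd2, whose product is the large scaffold of the base. The assembly chaperones of the cap (8.71 to 9.94) and of the core (5.10 to 9.33) lay below every cap gene. Transcript lengths were averaged over the transcripts of a symbol, so such differences between genes also carry the choice of transcripts. Psmb11, which encodes the thymus-specific beta subunit, was at the lower end of the table, with values from -1.02 to -0.97 in the 8 samples.

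**Figure D2:**
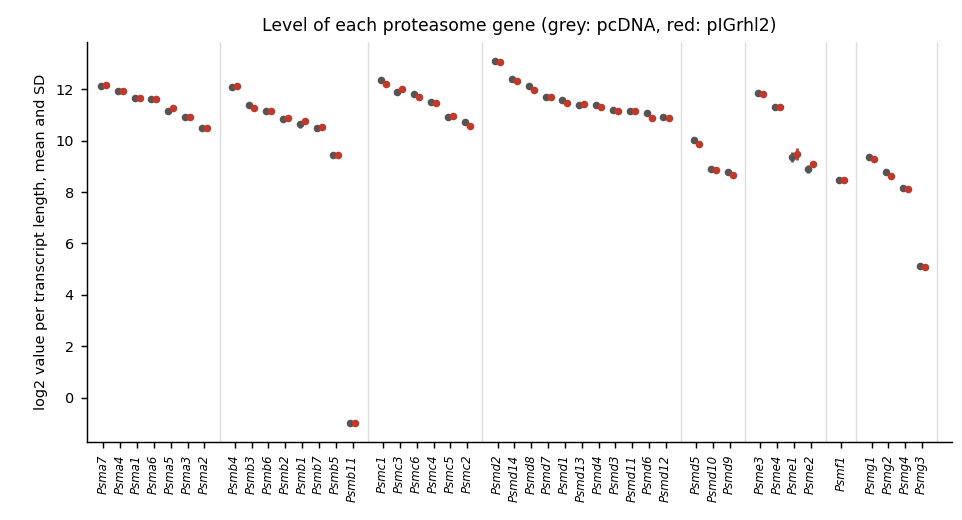
Mean and SD (n = 4) of the log2 value per transcript length (y axis) of each proteasome gene in pcDNA samples (grey) and pIGrhl2 samples (red), with genes (x axis) grouped by role and ordered by level. The means of the groups nearly coincide for most genes, and Psmb11 lies apart near -1.

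No core gene of the 15 passed limma's test without the block, and 1 of them, Psma5, had an unadjusted p under 0.05 and passed with the block. The catalytic subunits were close to equal in both groups. Psmb5 (GRCm38 chromosome 14, 54614119 to 54618022, minus strand), which encodes the chymotrypsin-like subunit, had values of 9.39, 9.45, 9.50 and 9.44 in pIGrhl2 replicates 1 to 4 and 9.46, 9.30, 9.56 and 9.50 in the pcDNA replicates. These values overlapped, with pcDNA replicates 2 and 3 at the ends of the range. The difference was -0.0084 (95% interval -0.14 to 0.13, limma), and it had the opposite sign under an equal upper quartile or an equal sum. Of the exonic bases of Psmb5, 12.1% are shared with Mir686 on the same strand.

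Psmb6 (chromosome 11, 70525367 to 70527858, plus strand), which encodes the caspase-like subunit, had values of 11.13, 11.18, 11.16 and 11.13 in pIGrhl2 and 11.19, 11.07, 11.22 and 11.19 in pcDNA samples. All pIGrhl2 values lay inside the range of the pcDNA values. Its difference of -0.017 had a 95% interval of -0.12 to 0.081 and turned positive under an equal upper quartile or an equal sum. Psmb7 (chromosome 2, 38588036 to 38644087, minus strand), which encodes the trypsin-like subunit, had values of 10.60, 10.60, 10.44 and 10.46 in pIGrhl2 and 10.55, 10.47, 10.49 and 10.45 in pcDNA samples. Here replicates 1 and 2 of pIGrhl2 were the highest and replicate 3 the lowest of the 8. The difference was 0.035 (95% interval -0.085 to 0.15), and 11.8% of the exonic bases of Psmb7 are shared with Nek6 on the opposite strand, which counting without regard to strand cannot separate.

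Among the other beta ring genes, the differences of Psmb1 (0.12, adjusted p = 0.277) and Psmb3 (-0.10, adjusted p = 0.234) were the farthest from 0 and neither passed limma's test, with or without the block. Psmb2 (0.019) and Psmb4 (0.059) did not pass it either. In the alpha ring, which forms the gate of the barrel, 6 of the 7 differences were between -0.013 (Psma1) and 0.031 (Psma4).

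Psma5 was the exception in the alpha ring. It had values of 11.27, 11.24, 11.28 and 11.27 in pIGrhl2 replicates 1 to 4 and 11.19, 11.07, 11.21 and 11.16 in the pcDNA replicates. The lowest pIGrhl2 sample, replicate 2, lay above the highest pcDNA sample, replicate 3, so the groups did not overlap (exact permutation test, two-sided, p = 0.0286, the smallest that 4 samples against 4 allow). Every gene whose groups do not overlap has this same p, here and below, so it only restates the separation. The difference of 0.11 (SE 0.043, 7.76% higher) had an adjusted p of 0.115 in limma and of 0.0305 with the replicate block. The blocked call was lost without the samples of number 1 (adjusted p = 0.0810), 3 (0.0726) or 4 (0.119). A processed copy, Psma5-ps, is in the table with means of 6.90 and 6.82 in the groups, and 4.54% of the exonic bases of Psma5 are shared with 1700010K24Rik on the opposite strand, so a part of the reads may be left uncounted.

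The start of Psma5 is shown because it was the core gene whose groups did not overlap. The sequence runs from 250 bases before to 50 bases after the start (RefSeq, GRCm38.p6, chr3:108256676-108256975, plus strand). It is all in lower case because it held none of the motifs searched, which are given with the sequences of cap genes.
Psma5: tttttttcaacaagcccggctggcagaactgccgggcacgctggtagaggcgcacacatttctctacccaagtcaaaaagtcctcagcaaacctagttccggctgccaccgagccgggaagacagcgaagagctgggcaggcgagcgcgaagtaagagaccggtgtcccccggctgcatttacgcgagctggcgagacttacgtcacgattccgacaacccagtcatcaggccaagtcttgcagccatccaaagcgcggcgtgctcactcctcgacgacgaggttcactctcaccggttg

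Core genes were low in 1 pcDNA sample. For 13 of the 15 core genes, or 86.7%, pcDNA replicate 2 was the lowest of the pcDNA samples, and for 11 it was the lowest of all 8, whereas it was the lowest pcDNA sample for 35.1% of the genes with a mean of at least 5. Relative to each gene's mean over the 8 samples, the core genes had a median of -0.10 in that sample and medians between -0.020 and 0.043 in the other 7. Without pcDNA replicate 2 the median difference of the core genes was -0.012 instead of 0.017, and it was -0.014 when all samples had the same median, so its sign rests on that sample and on the scaling. Cap genes had a median of 0.060 in the same sample, above 0. Why core genes were low in that sample was not tested.

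**Figure D3:**
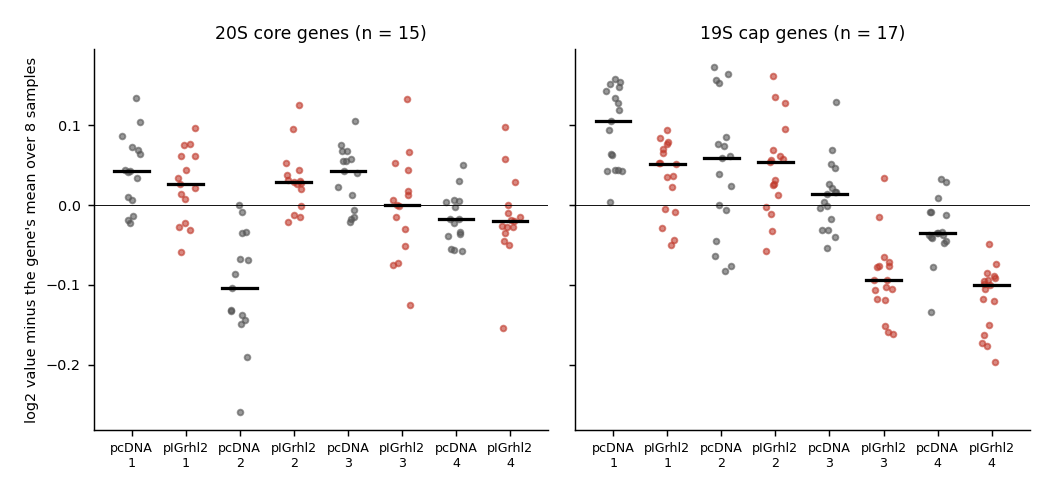
Log2 value minus the gene's mean over the 8 samples (y axis) for the 15 core genes and the 17 cap genes, by sample (x axis: pcDNA in grey, pIGrhl2 in red, same-numbered samples side by side), with bars at the medians. Core genes are lowest in pcDNA replicate 2 (median -0.10), and cap genes step down from replicates 1 and 2 to replicates 3 and 4 in both groups.

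Psmd6, which encodes a lid subunit, was the cap gene with the largest fall and the only one of the 17 cap genes called without the block. It lies at GRCm38 chromosome 14, 14112174 to 14120984, on the minus strand. Its values were 10.97, 10.94, 10.82 and 10.78 in pIGrhl2 replicates 1 to 4 and 11.12, 11.13, 11.02 and 11.01 in the pcDNA replicates. In each group replicates 3 and 4 were the lower ones, and the groups did not overlap (exact permutation test, two-sided, p = 0.0286). The mean was 11.07 ± 0.065 (SD, n = 4) in pcDNA and 10.88 ± 0.092 (SD, n = 4) in pIGrhl2 samples, which is a fall of -0.19 (SE 0.057, adjusted p = 0.0446 in limma, 0.00204 with the replicate block). Each same-numbered pair was lower, from -0.15 in pair 1 to -0.23 in pair 4. The call without the block held only without pIGrhl2 replicate 1 or 2, and its adjusted p lay between 0.0533 and 0.119 when any of the other 6 samples was left out. It was also lost under an equal upper quartile (adjusted p = 0.0584), an equal median (0.0529) and GC correction (0.0516), and with replicates 3 and 4 averaged (0.126). With the block it held without each replicate number, at adjusted p-values between 0.00107 and 0.0187.

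Of the 6 ATPase genes, none passed limma's test without the block, although 3 had an unadjusted p under 0.05, and 3 fell with the block. With the block, 13.9% of all genes and 20.6% of those with a mean of at least 5 were called lower. Psmc1 (chromosome 12, 100110154 to 100123405, plus strand) had values of 12.26, 12.29, 12.11 and 12.10 in pIGrhl2 and 12.40, 12.44, 12.28 and 12.26 in pcDNA samples. The groups overlapped because replicates 3 and 4 were lower than replicates 1 and 2 in both, while the pair differences were between -0.17 and -0.14. The difference was -0.16 (SE 0.062, 10.4% lower), with an adjusted p of 0.113, or 0.00253 with the block, and the blocked call held without each replicate number.

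Psmc2 (chromosome 5, 21785283 to 21803787, plus strand) had values of 10.60, 10.67, 10.53 and 10.49 in pIGrhl2 and 10.81, 10.74, 10.72 and 10.66 in pcDNA samples. Only pIGrhl2 replicate 2 reached into the pcDNA range. Its difference was -0.16 (SE 0.053), with an adjusted p of 0.0672 in limma, or 0.00891 with the block and 0.0546 with the block and without number 1. Psmc6 (chromosome 14, 45329788 to 45349705, plus strand) had values of 11.72, 11.69, 11.64 and 11.67 in pIGrhl2 and 11.86, 11.92, 11.77 and 11.74 in pcDNA samples. These groups did not overlap (exact permutation test, two-sided, p = 0.0286). The difference was -0.14 (SE 0.048), with an adjusted p of 0.0764, or 0.0123 with the block and 0.0541 with the block and without number 1. The other ATPase genes had differences of 0.096 (Psmc3), -0.027 (Psmc4) and 0.023 (Psmc5), and none of these 3 passed the test with or without the block. Psmc3 shares 8.25% of its exonic bases with Slc39a13 on the opposite strand.

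Besides Psmd6, the non-ATPase genes Psmd8 and Psmd1 fell with the block. Psmd8 (chromosome 7, 29174188 to 29180701, minus strand), a lid subunit, had values of 11.996, 12.03, 11.93 and 11.89 in pIGrhl2 and 12.20, 12.03, 12.17 and 12.07 in pcDNA samples. The groups did not overlap, but pIGrhl2 and pcDNA replicates 2 were only 0.0048 apart. The difference was -0.16 (SE 0.051), with an adjusted p of 0.0667, or 0.0184 with the block. The blocked call was lost without number 1 (0.0906), 3 (0.0961) or 4 (0.0808). Without pair 2, whose pcDNA sample was low for the core as well, the difference was -0.21.

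Psmd1 (chromosome 1, 86064387 to 86139151, plus strand), a scaffold of the base like Psmd2, had values of 11.58, 11.55, 11.36 and 11.35 in pIGrhl2 and 11.67, 11.68, 11.52 and 11.49 in pcDNA samples. Replicates 1 and 2 were above replicates 3 and 4 in both groups, which therefore overlapped. The difference was -0.13 (SE 0.070), with an adjusted p of 0.253, or 0.0111 with the block, and the blocked call was lost without number 3 (0.0649) or 4 (0.0638). Psmd1 shares 4.14% of its exonic bases with Gm21972 on the same strand and 3.47% with Htr2b on the opposite strand. The remaining 8 non-ATPase genes, among them those of the ubiquitin receptor Psmd4 (-0.072) and the deubiquitinase Psmd14 (-0.072), had differences between -0.072 and 0.044, and none passed the test with or without the block.

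**Figure D4:**
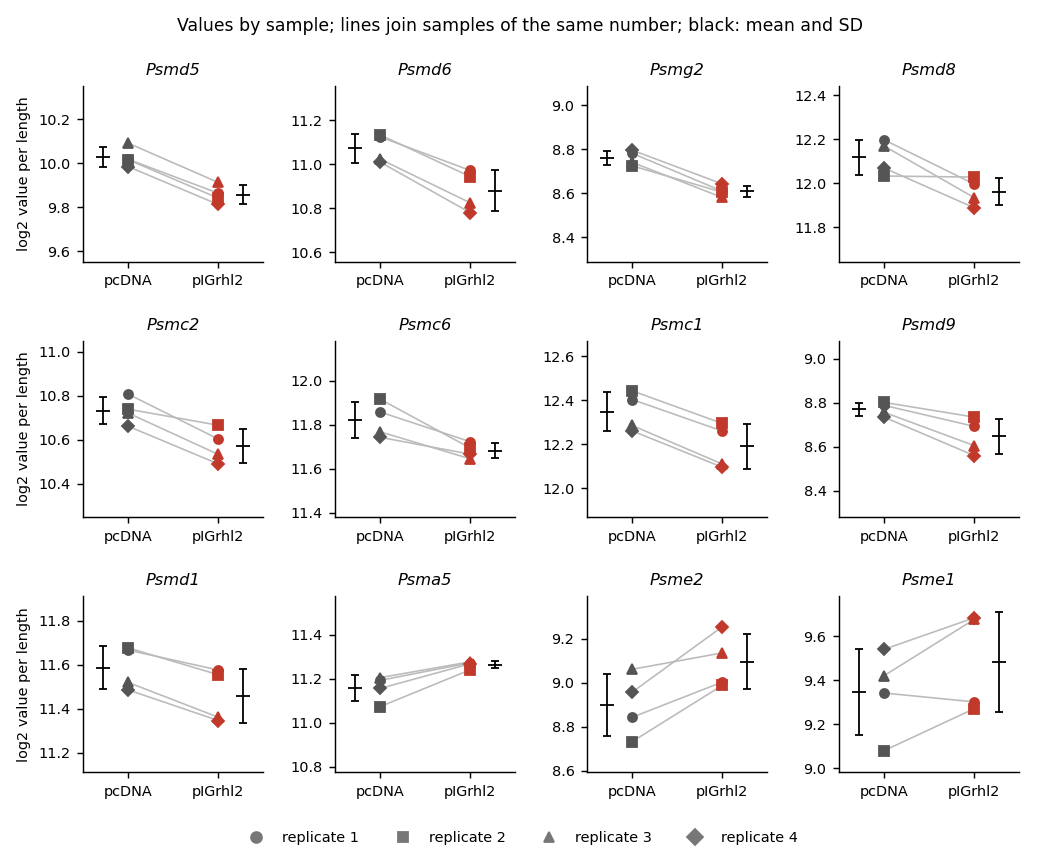
Log2 value per transcript length (y axis) in each sample for 12 proteasome genes, with lines joining the pcDNA and pIGrhl2 samples of the same number and black marks for the mean and SD of each group (n = 4). The y axes have the same length in log2 units but different starts, and in the first 9 panels, read row by row from Psmd5 to Psmd1, the pIGrhl2 sample of every pair is the lower one.

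The levels of cap genes differed between replicates 1 and 2 and replicates 3 and 4. The mean of replicates 1 and 2 exceeded that of replicates 3 and 4 for 15 of 17 cap genes in the pcDNA samples (median 0.080) and for 17 of 17 in the pIGrhl2 samples (median 0.16). For the core genes it was higher for 3 of 15 (median -0.026) and 11 of 15 (median 0.022), and over all genes for 54.2% and 56.1%. Replicate 4 of pIGrhl2 was the lowest of its group for 14 of the 17 cap genes, or 82.4%, where it was so for 28.7% of the genes with a mean of at least 5. The median difference between the plasmids for the cap genes was -0.037 within replicates 1 and 2 and -0.083 within replicates 3 and 4. Whether cap and core genes differ in this was not tested, nor was what separates the replicate numbers.

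The assembly chaperones of the 19S base had means below those of the pcDNA samples in 3 of 3 cases (2 of 3 under an equal upper quartile or an equal sum), and 1 of them, Psmd5, passed limma's test without the block. Psmd5 (chromosome 2, 34849734 to 34874968, minus strand), which escorts ATPases into the base, had values of 9.86, 9.84, 9.91 and 9.81 in pIGrhl2 replicates 1 to 4 and 10.02, 10.02, 10.09 and 9.98 in the pcDNA replicates. The highest pIGrhl2 sample was below the lowest pcDNA sample, and the pair differences were between -0.18 and -0.15. The mean was 10.03 ± 0.045 (SD, n = 4) in pcDNA and 9.86 ± 0.042 (SD, n = 4) in pIGrhl2 samples, which is a fall of -0.17 (SE 0.044, 11.1% lower, adjusted p = 0.0284 in limma, 0.00447 with the block). Without pIGrhl2 replicate 1, 2 or 4 or pcDNA replicate 1 or 3 the adjusted p was between 0.0579 and 0.0780, with the difference between -0.19 and -0.15 whichever sample was left out, and it was 0.0770 with replicates 3 and 4 averaged. With the block, the call held without each replicate number.

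Psmd9 had values of 8.69, 8.74, 8.61 and 8.56 in pIGrhl2 and 8.79, 8.80, 8.76 and 8.73 in pcDNA samples. Only pIGrhl2 replicate 2 reached the lowest pcDNA value. Its difference of -0.12 (SE 0.050) had an adjusted p of 0.132, or 0.0352 with the block, and the blocked call was lost without number 1 (0.0905), 3 (0.128) or 4 (0.154). As 25.5% of its exonic bases are shared with Gm26745 on the opposite strand, its reads cannot be assigned with certainty. Psmd10, which encodes the chaperone gankyrin, had a difference of -0.0099.

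The starts of Psmd5, Psmd6 and Psmc1 are shown because the calls of these 3 genes with the block held without each replicate number. Each sequence runs from 250 bases before to 50 bases after the start on the gene's strand, as given by RefSeq for GRCm38.p6. The RefSeq start of Psmd5 lies 4006 bases inside the gene as GENCODE places it, and those of Psmd6 and Psmc1 lie 39 and 48 bases inside. The windows are chr2:34870913-34871212 (minus strand) for Psmd5, chr14:14120896-14121195 (minus strand) for Psmd6 and chr12:100109952-100110251 (plus strand) for Psmc1. Capitals mark CCGGAAG, the core of ETS family sites, or its reverse complement, CCAAT, and in Psmd5 the palindrome TCTCGCGAGA, which was added after the promoters had been read.
Psmd5: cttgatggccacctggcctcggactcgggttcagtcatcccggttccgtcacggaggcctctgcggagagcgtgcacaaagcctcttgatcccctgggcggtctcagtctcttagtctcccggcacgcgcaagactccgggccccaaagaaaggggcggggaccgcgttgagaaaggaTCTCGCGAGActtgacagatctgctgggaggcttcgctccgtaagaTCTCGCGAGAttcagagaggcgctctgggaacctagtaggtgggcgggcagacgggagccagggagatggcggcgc
Psmd6: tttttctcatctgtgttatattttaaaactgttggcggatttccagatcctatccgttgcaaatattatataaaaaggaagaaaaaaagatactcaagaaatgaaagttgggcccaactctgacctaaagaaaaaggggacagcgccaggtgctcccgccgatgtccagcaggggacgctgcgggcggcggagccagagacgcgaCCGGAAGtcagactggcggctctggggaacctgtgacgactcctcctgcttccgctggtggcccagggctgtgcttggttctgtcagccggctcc
Psmc1: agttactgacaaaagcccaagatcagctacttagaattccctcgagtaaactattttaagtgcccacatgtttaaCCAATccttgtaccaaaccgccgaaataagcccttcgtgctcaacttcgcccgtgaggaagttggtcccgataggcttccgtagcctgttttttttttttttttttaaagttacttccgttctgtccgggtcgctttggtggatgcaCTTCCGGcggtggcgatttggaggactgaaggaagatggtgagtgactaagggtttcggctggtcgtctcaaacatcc

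In these windows, the palindrome of Psmd5 begins 72 and 26 bases before the start, CCGGAAG of Psmd6 begins 45 bases before it, and in Psmc1 CTTCCGG begins 28 and CCAAT 175 bases before it. Windows were found for 37 of the 44 genes and for 12883 genes in all, and motifs were searched on both strands. CCGGAAG was in the windows of 14 of the 37 proteasome genes, or 37.8%, against 17.1% of all genes with a window. Of the 14, 9 were cap genes, namely Psmc1, Psmc2, Psmc6, Psmd2, Psmd4, Psmd6, Psmd11, Psmd12 and Psmd13, of 14 with a window, and 1 was a core gene, Psma6, of 12 with a window.

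The core of the antioxidant response element, which NFE2L1 and its relatives bind (TGACNNNGC, with N for any base), was in 6 of the 37 windows, or 16.2%, against 16.6% of all genes. CCAAT was in 13, or 35.1%, against 41.9%. The GRHL motif AACCNGTT was in 0 of the 37 windows and in 2.27% of all windows, which says only that these letters are not in these windows. The palindrome TCTCGCGAGA was in that of Psmd5 only, and in 0.986% of all windows. A match is a description of the sequence and was not linked to any difference in expression.

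Of the 4 activator genes, limma called none without the block and 1, Psme2, higher with it. PA28 alpha and beta, encoded by the neighbouring genes Psme1 and Psme2 on chromosome 14, form a cap that is known to be induced by interferon gamma. Psme2 (chromosome 14, 55587441 to 55591113, minus strand) had the highest difference of the 44 genes, with values of 9.004, 8.99, 9.14 and 9.26 in pIGrhl2 and 8.84, 8.73, 9.06 and 8.96 in pcDNA samples. Every pair was higher, but pcDNA replicate 3 lay above pIGrhl2 replicates 1 and 2, so the groups overlapped. The difference was 0.20 (SE 0.083, 14.6% higher), with an adjusted p of 0.139, or 0.0103 with the block and 0.0573 with the block and without number 4. A near-identical copy, Psme2b, is in the table with means of 7.03 and 7.01 in the groups, so reads that fit both copies may be left uncounted.

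Psme1 (chromosome 14, 55578123 to 55581529, plus strand) had values of 9.30, 9.27, 9.68 and 9.68 in pIGrhl2 and 9.34, 9.08, 9.42 and 9.54 in pcDNA samples. Replicates 3 and 4 were the highest in each group, the reverse of the order seen for the cap genes, and pIGrhl2 replicate 1 was below pcDNA replicate 1. Its difference of 0.14 (95% interval -0.14 to 0.41) did not pass limma's test (adjusted p = 0.494, or 0.0651 with the block).

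Psme3 (chromosome 11, 101316213 to 101323537, plus strand), which encodes the nuclear activator PA28 gamma, had values of 11.90, 11.93, 11.79 and 11.72 in pIGrhl2 and 11.93, 11.87, 11.79 and 11.84 in pcDNA samples. The ranges overlapped over most of their length, with a difference of -0.025 (adjusted p = 0.802), which was 0.013 without pIGrhl2 replicate 4. Psme4, which encodes PA200, had a difference of -0.027 (adjusted p = 0.746), and it was 0.0095 without pcDNA replicate 2 and 0.012 after correction for GC content. Psmf1, which encodes the inhibitor PI31, had a difference of 0.0023 (95% interval -0.100 to 0.10).

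All 4 chaperones of core assembly had lower means in the pIGrhl2 samples, under each scaling too, and 1 of them, Psmg2, passed limma's test. Psmg2 (chromosome 18, 67641599 to 67654162, plus strand), whose product pairs with that of Psmg1 to build the alpha ring, had values of 8.61, 8.61, 8.58 and 8.64 in pIGrhl2 and 8.78, 8.73, 8.74 and 8.80 in pcDNA samples. The groups did not overlap, and each pair was lower by between 0.12 and 0.17 on the log2 scale. The mean was 8.76 ± 0.034 (SD, n = 4) in pcDNA and 8.61 ± 0.025 (SD, n = 4) in pIGrhl2 samples, which is a fall of -0.15 (SE 0.041, adjusted p = 0.0335, or 0.0111 with the block). Without the block the call held only when pcDNA replicate 2 was left out, and with any other sample left out the adjusted p was between 0.0528 and 0.0916. It was 0.0584 under an equal upper quartile, 0.0734 under an equal sum, 0.0716 after GC correction and 0.111 with replicates 3 and 4 averaged. With the block, it was 0.0568 without number 1 and 0.0503 without number 4. Psmg1 (-0.082), Psmg3 (-0.032) and Psmg4 (-0.042) did not pass the test with or without the block.

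The immunoproteasome subunits, which replace the catalytic subunits after interferon gamma, did not pass the test with or without the block. Psmb8 was low, with means of 1.502 and 1.488 in pIGrhl2 and pcDNA samples, Psmb9 had 3.93 and 3.88, and Psmb10 had 7.72 and 7.79. Their differences were 0.014, 0.052 and -0.072, with 0 of 3 at an unadjusted p under 0.05 in limma and 0 of 3 called with the block. Among 15 interferon-stimulated genes outside the proteasome, 7 fell and 0 rose without the block, with a median of -0.25, and 10 were lower and 1 higher at an unadjusted p under 0.05. With the block, 10 fell and 2 rose, namely Irf1 (0.16, adjusted p = 0.0268 with the block) and Tapbp (0.26, adjusted p = 0.00387 with the block). Over all genes, limma called 5.91% lower and 10.5% higher without the block, and 13.9% and 18.2% with it. Of the 7, the adjusted p of Usp18 reached 0.103 over the alternatives. Ifit3 (-1.88, adjusted p = 2.9e-05) and Ifit1 (-1.63, adjusted p = 1.85e-05) had the largest falls.

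Of 11 other proteins that bind or build the proteasome, limma called 1 lower and 0 higher, and 3 lower with the block, with a median of -0.060. The shares of genes with a mean of at least 5 called lower were 8.38% without the block and 20.6% with it. Txnl1, a thioredoxin-like protein of the cap, fell by 0.22 on the log2 scale (SE 0.052, adjusted p = 0.0176), and its adjusted p reached 0.0570 over the alternatives. Adrm1 (-0.093) and Sem1 (-0.13), which are cap subunits outside the Psm names, and Pomp (0.079), the chaperone that completes the core, did not pass the test with or without the block.

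Among 9 regulators of proteasome genes, 1 fell and 2 rose without the block, and 5 fell and 2 rose with it. For genes with a mean of at least 5, limma called 8.38% lower and 6.69% higher without the block, and 20.6% and 16.3% with it. Nfe2l1 had a difference of -0.12 (adjusted p = 0.0640, or 0.0219 with the block) with its groups apart (exact permutation test, two-sided, p = 0.0286). Its relative Nfe2l3 rose by 0.55, with means of 6.28 ± 0.071 (SD, n = 4) in pcDNA and 6.83 ± 0.055 (SD, n = 4) in pIGrhl2 samples (SE of the difference 0.049, adjusted p = 0.000181), and kept an adjusted p of at most 0.00229 over the alternatives. Nfe2l2, which encodes NRF2, had a difference of 0.054 (adjusted p = 0.646). Of the 3 small MAF partners of these factors in the list, Maff rose by 0.41 (adjusted p = 0.0484), whereas Mafk had a difference of -0.42 (adjusted p = 0.0637, or 0.000233 with the block) and Mafg one of -0.14 (adjusted p = 0.120, or 0.0258 with the block). Ddi2, the protease that activates NFE2L1, fell by 0.20 (adjusted p = 0.0464). The calls of Maff and Ddi2 were near the threshold, with adjusted p-values of up to 0.111 and 0.108 over the alternatives.

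Related systems of protein quality control were examined by lists. Their counts stand beside shares of genes with a mean of at least 5, of which 8.38% were called lower and 6.69% higher without the block. With the block these shares were 20.6% and 16.3%. Of 12 ubiquitin and shuttle genes, 1 fell, namely Sqstm1, the autophagy receptor p62, by 0.42 on the log2 scale (SE 0.053, adjusted p = 0.000876), and with the block 4 fell, with Uba1, Rad23b and Ubqln1 beside it. Of 8 genes of p97 and its cofactors, 1 fell (Ubxn4, -0.21, adjusted p = 0.0295, up to 0.0830 over the alternatives), and with the block 2 fell, with Ufd1 (-0.17, adjusted p = 0.00498 with the block) beside it. Of 10 cytosolic chaperones, Bag3 fell by 0.29 on the log2 scale (adjusted p = 0.0183, up to 0.0558 over the alternatives), and the stress-inducible Hspa1a and Hspa1b rose by 1.10 (adjusted p = 0.00189) and 1.24 (adjusted p = 0.00346). With the block, 4 chaperones fell (Hsph1, Hspa4, Hsp90aa1 and Bag3) and the same 2 rose. Hspa1a and Hspa1b are near-identical copies, so reads that fit both may be left uncounted.

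The chaperonin CCT is another ring complex of obligate subunits, and 8 of its 8 genes had lower means in the pIGrhl2 samples (6 of 8 under an equal upper quartile or an equal sum), with a median of -0.15. Limma called 1 of them, Cct4 (-0.18, adjusted p = 0.0375), without the block and 5 with it. Called lower were 8.38% of the genes with a mean of at least 5 without the block and 20.6% with it. The call of Cct4 held in 3 of the 8 fits that left out a sample, and its adjusted p reached 0.104 over the alternatives. The COP9 signalosome, whose subunits resemble those of the 19S lid, had a median of -0.059 over 10 genes, with 0 called without the block in either direction, 2 lower at an unadjusted p under 0.05, and 2 called lower with the block (Cops4 and Cops8). All 8 genes of the integrated stress response list fell, with a median of -0.59, although the adjusted p of Atf3 reached 0.116 and that of Asns 0.0722 over the alternatives. Their smallest fall, that of Asns at -0.23, exceeded the largest among the proteasome genes.

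**Figure D5:**
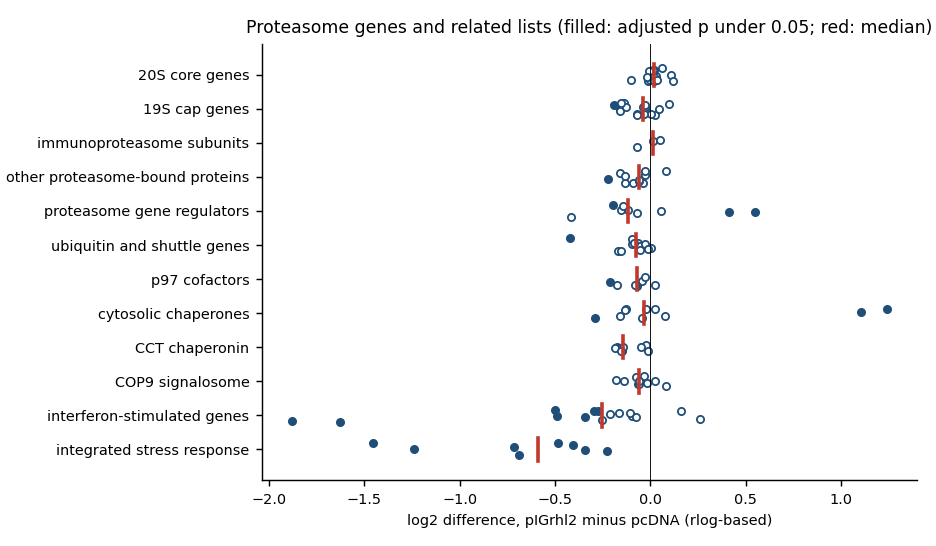
Log2 difference between pIGrhl2 and pcDNA samples (x axis) for each gene of the core, of the cap and of related lists (y axis), filled where limma's adjusted p was under 0.05 without the block, with a red bar at each list's median. Core and cap genes lie within 0.2 of 0, whereas all 8 integrated stress response genes are filled and lie at or below -0.23.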

How the data were processed

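RNA-seq of 8 BMEL samples was analysed. As the methods describe it, the authors mapped reads with HISAT2 (2.2.1), counted exonic reads without regard to strand with HTSeq (0.9.1), removed genes with fewer than 10 reads in all and divided rlog values of DESeq2 (1.40.2) by transcript length. By the same methods, counting used union mode and a minimum alignment quality of 10, so reads that fit several places equally well may be left out. The software versions come from the submitters' processing notes, which name mm10 and GRCm39. The methods of the authors name other versions of HISAT2 and of the rlog package, and they were assumed to cover the BMEL samples. The deposited values are on a log2 scale, since 4.81% are below 0. Rlog values shrink differences of genes with few reads. Depth is unknown, so no interval for counting error alone can be given, and the intervals printed rest on the spread between replicates. Replicates are described as independent biological replicates.

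Groups were compared with limma 3.58.1 in R 4.3.3 (mean-variance trend, Benjamini-Hochberg adjustment over 18671 genes, adjusted p under 0.05), which was checked on simulated data. Residuals of same-numbered samples correlated (Pearson's r across genes 0.47, 0.56, 0.55 and 0.64), and the replicate number was also used as a block. Samples of unlike number within 1 and 2 (0.34 and 0.44) and within 3 and 4 (0.50 and 0.60) correlated too, so these values do not single out the number. Members, lists and tests were chosen with earlier results of these data known. By the rule for named genes, values per sample are given for called members, the catalytic subunits, Psme1 to Psme3 and the members with the largest rise and fall. Positions are from GENCODE M21 (GRCm38) and sequences from RefSeq (GRCm38.p6).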

Additional observations from a re-analysis of the deposited data

Results flagged for a closer look

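In 154 groups of 4 samples (genes named or listed, each in pIGrhl2 and in pcDNA samples), 3 held a sample that stood off from the others by a larger share of the group's range than Dixon's test allows. Chance gives about 1 such group in 20, or 7.7. In all 3 the distant sample was pcDNA replicate 2. Psme4 was highest there, at 11.44, Pomp was lowest, at 10.23, and Atf4 was highest, at 12.15.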

How the results depend on the processing

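Limits: depth is unknown, the rlog shrinks low genes such as Psmb11 and Psmb8, and with differences this small most calls sat near the threshold. The cause of a change with a setting was not tested unless the setting itself leaves out samples. As reported, 3 members were lower and 0 higher, with 1 and 0 for the cap and 0 and 0 for the core. The replicate block and the batch term (replicates 1 and 2 against 3 and 4) each gave 9 lower and 2 higher, with 6 lower in the cap and 1 higher in the core, and the block changed no call of the 3 members lower without it. Members lower were 1 under an equal upper quartile, 1 after GC correction, 0 with replicates 3 and 4 averaged, and 0 to 3 with each sample left out (cap 0 to 2), while the cap had 0 under an equal upper quartile, an equal median, GC correction and averaging. GC correction with the block gave 10 lower and 3 higher (cap 7 lower, core 2 higher). Choices added after seeing the data combined the block with a scaling or left out one number. With an equal upper quartile the block gave 8 lower and 4 higher (cap 6 lower, core 2 higher), with an equal median 12 and 1 (cap 8 lower, core 1 lower), and with an equal sum 8 and 5 (cap 6 lower and 1 higher, core 2 higher). Without number 1, 2, 3 or 4 the block gave 4, 13, 6 and 5 lower and 2, 2, 1 and 0 higher, with 3, 8, 4 and 4 lower in the cap, and without number 2 also 1 lower and 1 higher in the core. The median of the cap was -0.075 without number 2 and -0.083 within replicates 3 and 4. Of the 44 members, 20 changed sign under at least 1 of 26 alternatives, all with an absolute difference of at most 0.032, and 24 did not. Among the genes described singly, the difference of Psmb5 turned to 0.014 under an equal upper quartile, 0.016 with an equal sum (both the same with the block), 0.0076 with replicates 3 and 4 averaged, and 0.012, 0.0061 and 0.0091 with the block and without number 1, 3 or 4, and it ran from -0.059 to 0.025 with each sample left out. That of Psmb6 turned to 0.0051 and 0.0066 under an equal upper quartile and an equal sum, with or without the block. Psme3 ran from -0.058 to 0.013 with each sample left out and was 0.0065 with the block and without number 4, and Psme4 ran from -0.044 to 0.0095, with 0.012 after GC correction (also with the block) and 0.0040 with the block and without number 2. Under an equal median, with or without the block, Psmb11 turned to -0.019 and Psmb8 to -0.017, and Psmb8 was -0.0028 after GC correction, with or without the block, -0.0088 with the block and without number 1, and -0.0021 to 0.026 with each sample left out. The median over all genes was 0.0066 as deposited, 0.029 with an equal upper quartile, 0.031 with an equal sum and -0.024 with an equal median.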
